A study of Homo sapiens with 4 samples.

Results

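Untreated KYSE170 cells, a human line from an oesophageal squamous cell carcinoma, were described from 2 of the 4 arrays of the study. Both arrays were chosen by their titles, and neither was chosen by a measured value. The other 2 arrays hold cells given EDHB (ethyl-3,4-dihydroxybenzoate) at 50 µg/ml for 12 h and are not compared here. All cells grew in medium with serum and antibiotics, and Trizol-extracted total RNA was labelled with biotin for Affymetrix 3′ arrays. The labels give no genotype, passage or clone, and nothing in them says whether the replicates came from separate cultures, so the spread between the arrays may be technical. With 1 pair of arrays, precision is limited.

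The oesophagus is lined by a stratified squamous epithelium. Its basal cells carry the keratins KRT5 and KRT14 and hold to the basement membrane by hemidesmosomes, and its upper layers switch to other keratins and build a cornified envelope. SOX2 and TP63 are the transcription factors best known for keeping squamous cells in that lineage, and EGFR is the growth factor receptor most often studied in squamous carcinomas.

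A level here is the log2 of the deposited intensity of a gene's brightest probe set, as the mean of both untreated arrays. Probe sets bind with different strength, so the order of genes is an order of signal and not of transcript number. Across the deposited rows, the untreated arrays correlated at only 0.415 over probe sets, because the second array's values stand in another row order. After the order was restored the correlation was 0.997, for 54467 of 54613 probe sets, with a median absolute difference of 0.125. Restoring picks rows by closeness, so the restored correlation is partly built in and the SD values below understate the true spread. Median linear intensity was 23.5 and 23.4 on untreated arrays 1 and 2.

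A limit for background was set at the 95th percentile of 82 olfactory receptor genes, which an epithelial line is taken not to transcribe. It stood at 4.82 (a linear intensity of 28.3), and 11652 of 19775 genes (58.9%) lay above it. A stricter limit of 6.38, the 95th percentile of liver, pancreas, neuronal and muscle genes, left 8205 genes (41.5%) above. Levels between both limits, held by 3447 genes, are close to background and are given as values only. The share above the limit also followed how many probe sets a gene had, from 42.5% of genes with 1 to 84.7% of genes with 4 or more.

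**Figure D1:**
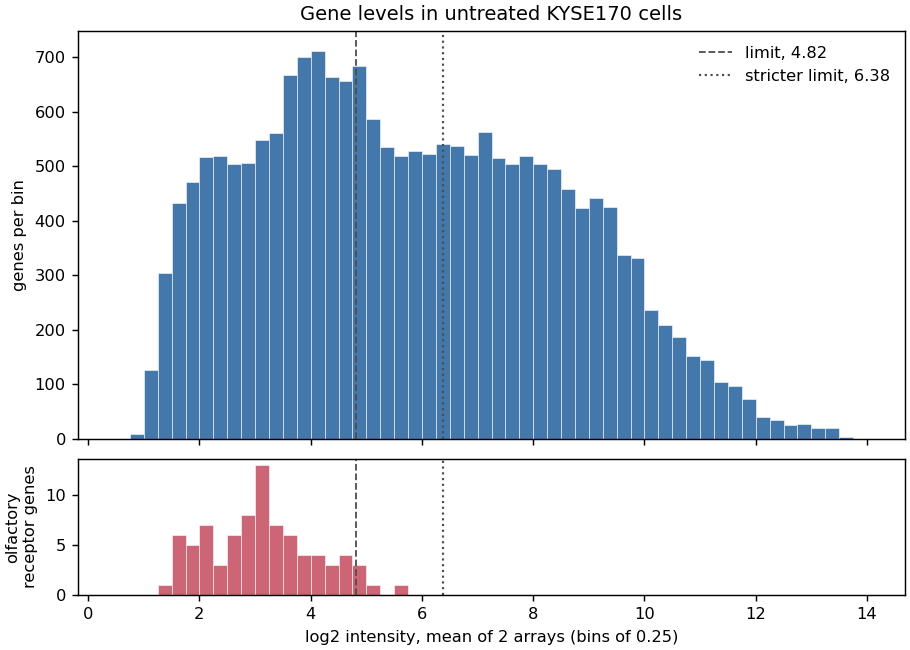
Number of genes per bin of 0.25 log2 units (top) and the same for olfactory receptor genes (bottom), against the mean log2 intensity of both untreated arrays. The olfactory receptor genes had a median of 3.11 and a highest level of 5.68, so that none reached the stricter limit of 6.38 (dotted), while gene levels ran up to 13.69.

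Of the 5 marker genes of squamous cells, 3 of the 4 named here lay above the limit, beside 58.9% of all genes. EGFR was bright, at 10.10 and 10.18 on untreated arrays 1 and 2 (10.14 ± 0.06, SD, n = 2), and 6 of its 9 probe sets lay above the limit. SOX2 read 8.95 and 8.80 (8.88 ± 0.10, SD, n = 2) with 2 of its 4 probe sets above. KRT5 was weak for a lineage keratin, at 6.17 and 6.68 (6.43 ± 0.36, SD, n = 2), which is the 59th percentile of genes. KRT14 was not above the limit on either array, at 3.19 and 4.30 (3.75 ± 0.78, SD, n = 2). TP63 is not analysed here. The keratin pair of basal squamous cells was thus weak or not above background, while SOX2 and EGFR were clearly measured.

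Genes of the basal layer beyond these markers were mostly bright. The list of basal keratins and adhesion genes also holds KRT5 and KRT14. In it 13 of 15 named members lay above the limit and 12 above the stricter one (beside 58.9% and 41.5% of all genes). The median was 8.46 against 5.58 over all genes. S100A2, a calcium-binding protein of basal keratinocytes, read 13.12 and 13.30 and ranked 30th of all genes. SFN, the 14-3-3 protein of stratified epithelia, read 12.78 and 12.81. The hemidesmosome genes DST (9.81), ITGA6 (9.66), LAMB3 (9.18) and ITGB4 (8.46), the cadherin CDH3 (9.39) and the desmosomal cadherin DSC3 (8.35) were above both limits. For DST this held for its brightest probe set, while 5 of 10 lay above the limit and the middle one (4.55) did not. KRT15, another basal keratin, was brighter than KRT5, at 8.31 and 8.01. KRT16, a keratin of activated keratinocytes, read 4.79 and did not pass.

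Transcription factors of squamous and stratified epithelia were above the limit in 15 of 19 cases and above the stricter one in 14. Of all genes 58.9% and 41.5% passed these limits. The brightest were TFAP2A (9.56), EHF (9.25), GRHL2 (9.07), SOX15 (8.97) and SOX2. KLF5 (8.73), TFAP2C (8.56), KLF4 (8.17), and the oral and oesophageal factors PITX1 (6.87) and PAX9 (6.73) were also measured. ZNF750, which drives late squamous differentiation, was among the dimmest genes of the array, at 1.16 and 1.29. PRDM1 (4.80), which acts late in the same programme, did not pass either.

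The suprabasal layer was represented by few genes. Of 33 members 14 (42.4%) lay above the limit and 6 above the stricter one (beside 58.9% and 41.5% of all genes). The median was 4.53. The 6 were the protease inhibitors CSTA (10.70) and CSTB (10.50), the membrane protein EMP1 (10.36), KRT10 (10.08), the envelope protein periplakin (PPL, 8.58) and KRT13. KRT13, the main keratin of the oesophageal upper layers, differed between the arrays more than most genes, at 7.04 and 7.84. The cornified envelope proteins IVL (3.86), LORICRIN (3.87), FLG (1.62) and SPRR3 (4.53), the desmosomal cadherin DSG1 (1.64) and the oesophageal protein CRNN (3.28) were not above the limit. TGM1, the cross-linking enzyme, read 5.70, between the limits.

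Keratins of simple epithelia were measured far above both limits. KRT18 read 12.65 and 12.61, KRT8 11.40 and 11.34, and KRT7 10.34 and 10.35, and the adhesion molecule EPCAM read 11.94 and 11.85. KRT18, KRT8 and EPCAM were each read by 1 probe set, of a type that can bind several transcripts, so their signals may be shared. The middle one of the KRT7 probe sets read 4.74 and lay just under the limit computed in that way. KRT19, which accompanies KRT8 and KRT18 in many carcinomas, was not above the limit with either of its 2 probe sets (means of 3.28 and 2.84), and KRT20 read 2.19. Of the intestinal and gastric genes, those that did not pass included CDX2 (4.72), VIL1 (3.34), CDH17 (2.90), LGALS4 (3.58), CLDN18 (3.62), TFF1 (3.20) and TFF2 (4.42). ANXA10 (5.97), MUC6 (5.51), CDX1 (5.46), MUC5AC (5.18) and GATA4 (4.97) lay between the limits. In all, 14 of 29 columnar and glandular genes were above the limit and 9 above the stricter one (beside 58.9% and 41.5% of all genes). The remaining 5 of those 9 were AGR2 (7.75, array 1 only), GATA6 (7.75), FOXA1 (7.02), SOX9 (6.97) and MUC1 (6.41).

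Mesenchymal genes passed about as often as all genes, 10 of 17 (58.8%, beside 58.9%) at the first limit. SNAI2, a repressor of epithelial genes that basal keratinocytes also use, read 9.32 and 9.62. N-cadherin (CDH2) read 8.76 and 8.90, beside E-cadherin (CDH1) at 10.86 and 10.82. The matrix gene TNC (8.70), the collagen cross-linker LOX (7.42), fibronectin (FN1, 7.06) and FOXC2 (6.62) were the other members past the stricter limit, which 6 passed. For TNC 1 of 3 probe sets lay above the limit, and the middle one read 2.78. Without probe sets that can bind several transcripts FN1 read 2.18, under the limit. VIM, the mesenchymal intermediate filament, read 5.36, and ZEB1 (4.06), ZEB2 (2.41), SNAI1 (4.31) and SPARC (3.03) were not above background. Both cadherins were therefore measured with VIM between the limits and both ZEB genes under them.

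Most markers of other cell types were near background, with MITF and COL1A1 as the members past the stricter limit. The counts below stand beside 58.9% of all genes above the limit. Among fibroblast genes 2 of 12 passed the limit: COL1A1, a chain of type I collagen, read 6.38 and 6.49 with 4 of 5 probe sets above, and TAGLN read 5.67, while COL1A2 (3.32), COL3A1 (2.88), DCN (3.75) and LUM (2.62) did not. Among endothelial genes 2 of 10 passed, PECAM1 (5.02) and CLDN5 (4.84), with CDH5 at 3.28 and KDR at 2.35. None of 11 leukocyte genes passed, and PTPRC, the pan-leukocyte phosphatase CD45, read 1.79. In the list of melanocytes and neuroendocrine cells 4 of 11 passed: MITF (8.24), PMEL (5.29), SOX10 (5.11) and SYP (4.90). The melanocyte enzyme TYR (3.83) and MLANA (3.02) did not. MITF, the melanocyte transcription factor, had 2 of 3 probe sets above the limit.

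**Figure D2:**
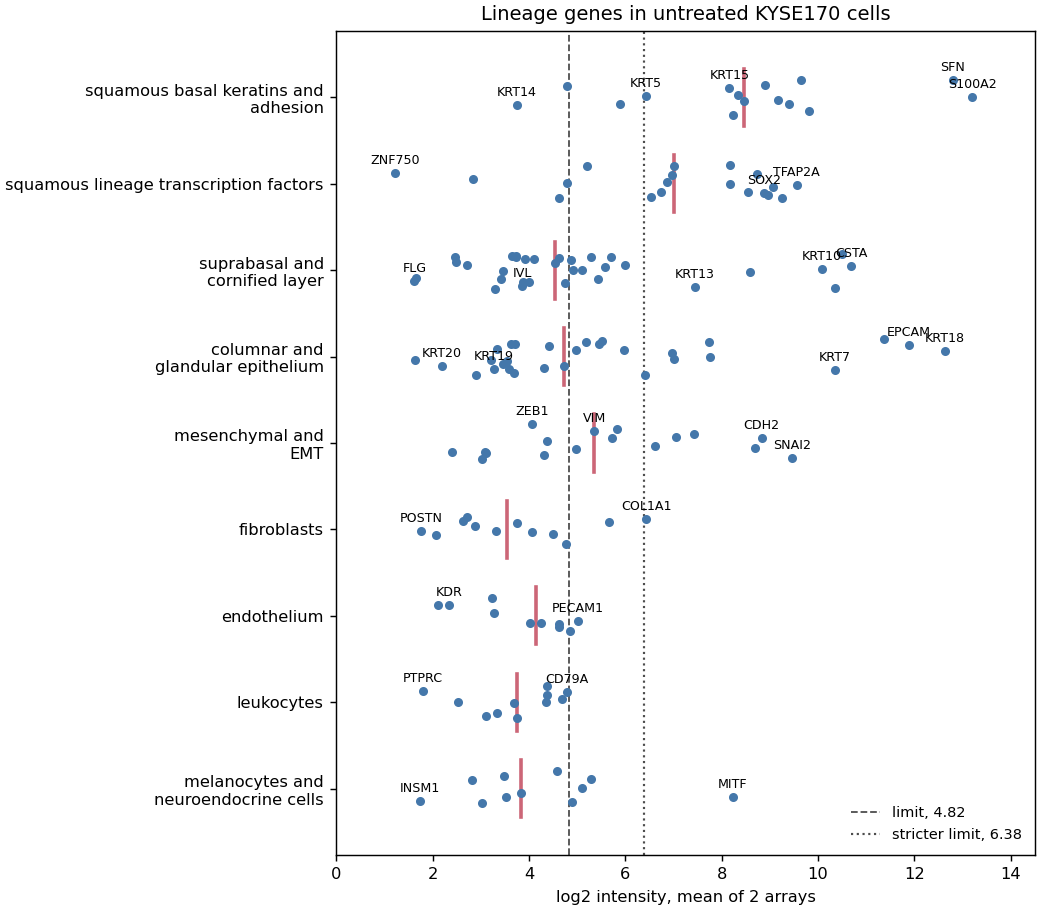
Mean log2 intensity of both untreated arrays for each gene (points; vertical jitter has no meaning) of 9 lineage lists, with the list median (red) and both limits. Basal and squamous factor genes have medians of 8.46 and 7.01, and the fibroblast, endothelial, leukocyte and melanocyte or neuroendocrine medians lie between 3.54 and 4.14, under the limit of 4.82.

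Epithelial junctions were well covered. Of 33 junction genes 24 lay above the limit and 21 above the stricter one (beside 58.9% and 41.5% of all genes). Desmosomes were led by the cadherin DSG2 (11.43) and the plaque protein desmoplakin (DSP, 11.10), adherens junctions by alpha-catenin (CTNNA1, 11.26), beta-catenin (CTNNB1, 11.08) and CDH1 (10.84). Tight junction genes included TJP1 (9.82), OCLN (9.18), CLDN1 (8.94), CLDN7 (8.56) and CLDN4 (8.30). DSG3, the basal squamous desmoglein, was much dimmer than DSG2 at 5.89, and DSG1 (1.64), DSG4 (1.07) and DSC1 (1.96) of the upper epidermis were not measured above background. Among gap junction genes of stratified epithelium GJA1 (9.10) and GJB5 (8.01) lay past both limits, and GJB2 (2.84) and GJB6 (1.36) under them.

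Integrins, the receptors for matrix, passed the limit in 14 of 25 cases (56%) and the stricter one in 9 (beside 58.9% and 41.5% of all genes). ITGB1 (11.57), the beta chain of most matrix receptors, ITGAE (10.81), ITGA6 (9.66), ITGB5 (9.59) and ITGAV (9.56) had the strongest signals, followed by ITGA2 (9.25) and ITGB4 (8.46). Only 3 of 7 ITGB1 probe sets lay above the limit, and the middle one read 2.60. Integrins known from leukocytes were divided: ITGB7 (4.70), ITGAM (4.68), ITGB2 (4.66), ITGAX (4.40) and ITGA4 (3.25) were not above the limit. ITGAL (5.04) lay between the limits, and ITGAE was bright, as given above.

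Receptor tyrosine kinases pass growth signals from outside the cell, and 27 of 55 of them (49.1%) passed the limit and 15 the stricter one (beside 58.9% and 41.5% of all genes). AXL, the receptor for GAS6, was brightest at 10.85 and 10.75. MET, the receptor of hepatocyte growth factor, followed at 10.47 and 10.49, with all 4 of its probe sets above the limit. EGFR, given above, was next. The order of these 3 depends on the probe set, since the other AXL probe set read 5.84, the other MET probe sets 6.56 to 7.07 and the second EGFR probe set 9.95. Then came EPHA2 (8.82), RYK (8.47), LMTK2 (8.30), IGF1R (8.17), ERBB3 (8.06) and FGFR2 (7.95). ERBB2 read 7.39 and 7.14 with 1 of 3 probe sets above, and ERBB4 was not above the limit (2.98). FGFR3 read 7.32 on array 1 only, FGFR4 6.31 and FGFR1 5.61. Receptors of mesenchymal and endothelial cells, PDGFRA (4.07), PDGFRB (4.78), KIT (3.15), KDR (2.35) and TEK (4.26), were not above the limit, while the endothelial FLT1 lay between the limits at 5.45 with 1 of 6 probe sets above. MERTK was not above (3.17), while the AXL relative TYRO3 read 6.34.

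**Figure D3:**
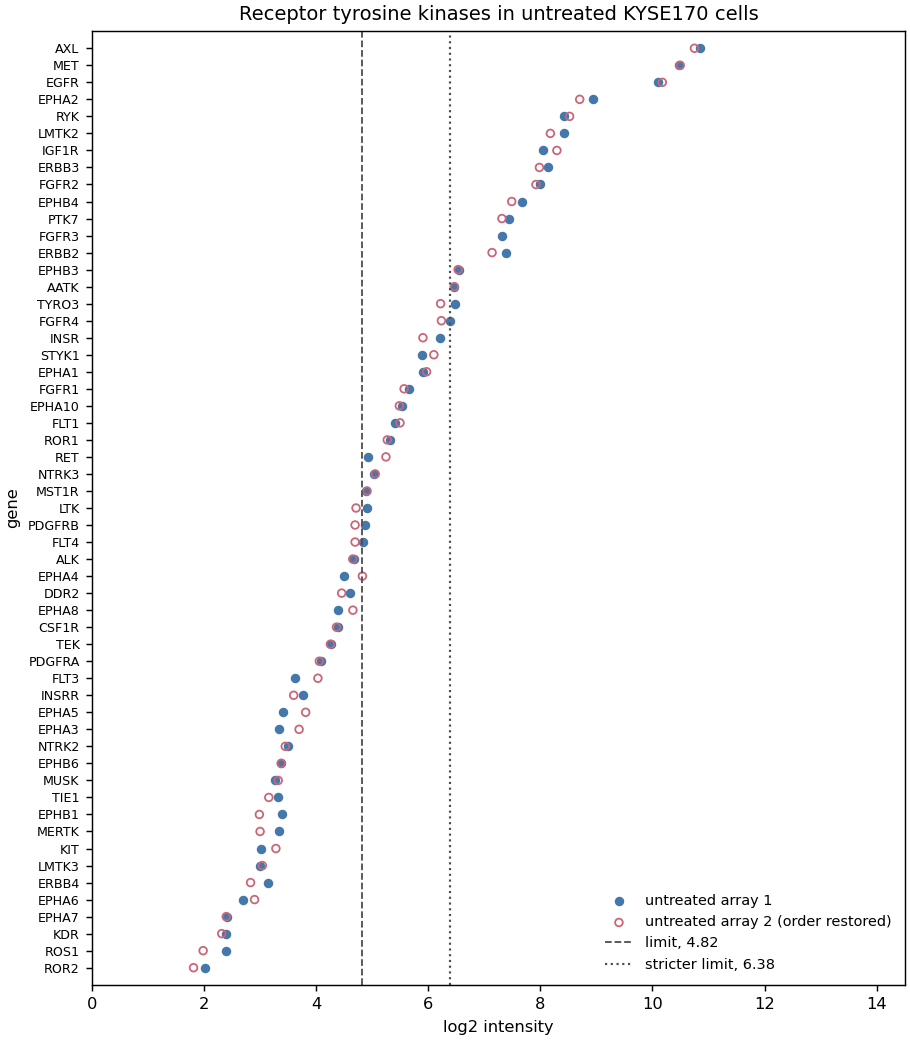
Log2 intensity of 55 receptor tyrosine kinase genes on untreated array 1 (filled) and array 2 (open, order restored), in order of their mean. AXL, MET and EGFR lie above 10 on both arrays, 12 more genes lie past the stricter limit of 6.38, and FGFR3 has no restored value on array 2.

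Ligands for several of the bright receptors were measured in the same cells. Of 42 ligand genes 28 (66.7%) passed the limit and 18 the stricter one (beside 58.9% and 41.5% of all genes). GAS6, the AXL ligand, read 8.43 and 8.36. For EGFR, TGFA read 8.19 and HBEGF 6.65, while EREG (4.19), EGF (1.98) and BTC (1.98) were not above the limit. NRG1, a ligand of ERBB3, read 8.25. HGF, the MET ligand, lay close to the limit at 5.03 and 4.98. The brightest ligands were PDGFC (9.45), EFNB2 (8.61) and KITLG (8.42), and the receptors PDGFRA, PDGFRB and KIT for PDGFC, other PDGF forms and KITLG were those given above as not above background. The vascular growth factors VEGFA (8.08) and VEGFC (8.04) were also measured.

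Downstream, 30 of 32 named RAS, MAPK and PI3K genes passed the limit and 22 the stricter one (beside 58.9% and 41.5% of all genes). The phosphatase PTPN11 (11.19), the adaptors SHC1 (10.65) and GRB2 (9.77), MAP2K1 (9.99) and HRAS (9.93) were brightest. DUSP6, a phosphatase induced by ERK signalling, read 9.04 and 9.17, and the ERK-induced factors ETV4 (6.26) and ETV5 (5.99) lay between the limits. Among PI3K catalytic genes PIK3CB read 8.50, PIK3CD 5.69 and the leukocyte form PIK3CG 2.25.

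Nuclear receptors are ligand-activated transcription factors, and 21 of 39 (53.8%) passed the limit, 12 of them the stricter one (beside 58.9% and 41.5% of all genes). The glucocorticoid receptor NR3C1 was brightest (10.00 and 9.97), then the orphan receptor NR2F6 (9.85), the vitamin D receptor VDR (9.65), RXRA (8.89) and PPARG (8.48). The epithelial retinoic acid receptor RARG read 6.54, RARA 6.21 and RARB 4.35. The steroid receptors PGR (2.16) and NR3C2 (2.81) were not above background, ESR2 read 4.49, and ESR1 lay between the limits at 5.29.

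TGF-beta and BMP genes passed the limit in 31 of 37 cases and the stricter one in 19 (beside 58.9% and 41.5% of all genes). The BMP targets ID1 (10.91 and 10.65) and ID3 (9.91 and 9.67) were brightest, followed by FST, an activin antagonist that differed between the arrays (8.89 and 9.84). Both TGF-beta receptors were measured, TGFBR2 at 8.60 and TGFBR1 at 8.49, with SMAD5 at 9.24, SMAD3 at 8.32, SMAD2 at 8.02 and SMAD4 at 7.21. The other TGFBR2 probe set did not pass. ID2 read 5.67, and the activin subunits INHBA (3.27) and INHBB (3.84) were not above the limit.

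In WNT signalling 28 of 44 genes (63.6%) passed the limit and 17 the stricter one (beside 58.9% and 41.5% of all genes). DKK1, a secreted WNT antagonist, was brightest at 11.99 and 11.64. CTNNB1, TCF7L2 (10.13), the WNT carrier WLS (9.55) and the receptor FZD6 (9.35) followed. WNT7B (7.56) and WNT10B (7.07) were the brightest WNT ligands, and WNT5A (2.21) and WNT1 (2.17) were not above background. Among known targets of beta-catenin, DKK1, ZNRF3 (7.40) and RNF43 (6.76) lay past the stricter limit, AXIN2 (4.85) at the first limit and LGR5 (2.59) under it.

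Notch genes passed the limit in 22 of 24 cases and the stricter one in 14 (beside 58.9% and 41.5% of all genes). The receptor protease ADAM10 (10.44), NOTCH2 (9.95), the DNA-binding partner RBPJ (9.56), ADAM17 (9.48) and the ligands JAG1 (8.96) and JAG2 (8.88) were brightest. The target genes HES1 (8.23) and NRARP (8.10) were both above the stricter limit, and NOTCH1, the receptor tied to squamous differentiation, read 7.25 and 7.04. Of 11 Hedgehog genes 4 passed the limit and 1 the stricter one (beside 58.9% and 41.5% of all genes). Those 4 were GLI3 (7.88), PTCH1 (6.26), SUFU (6.13) and SMO (5.51). The ligands SHH (4.41), IHH (4.63) and DHH (3.05) and the target GLI1 (4.57) did not pass.

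YAP1, the transcriptional coactivator held back by the Hippo kinases, was among the brightest genes, at 12.40 and 12.30 (12.35 ± 0.07, SD, n = 2), ranked 120th, with all 3 of its probe sets between 11.44 and 12.35. In its list 18 of 19 genes passed the limit and 15 the stricter one (beside 58.9% and 41.5% of all genes). The target CCN1 read 10.45, the DNA-binding partner TEAD1 9.73, the Hippo kinases STK3 9.05 and STK4 8.97, and the paralogue WWTR1 (TAZ) 8.84. Of other known targets, AMOTL2 (8.67) and LATS2 (8.59) lay past the stricter limit, CCN2 at the first limit (4.90) and ANKRD1 under it (4.23).

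The neighbours of YAP1 were examined after its level was seen, with gene order from RefSeq (GRCh38.p14). Among 16521 measured protein-coding genes there were 4 runs of at least 3 neighbours within the brightest 2%, a level of 11.37 or more, and 1 of them was YAP1, BIRC2 (12.49) and TMEM123 (12.47) on chromosome 11. BIRC2 encodes the apoptosis inhibitor cIAP1. The 9 matrix metalloproteinase genes that follow ran from 1.48 (MMP20) to 6.29 (MMP13), and beyond them DCUN1D5 read 13.05, the 40th rank of all genes, and DYNC2H1 10.72. The other runs were ATP5F1B with PTGES3 and NACA on chromosome 12, VDAC1 with SKP1 and PPP2CA on chromosome 5, and the mitochondrial ND2, COX1 and COX2. DNA copy number was not measured here, and its part in these levels was not tested.

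**Figure D4:**
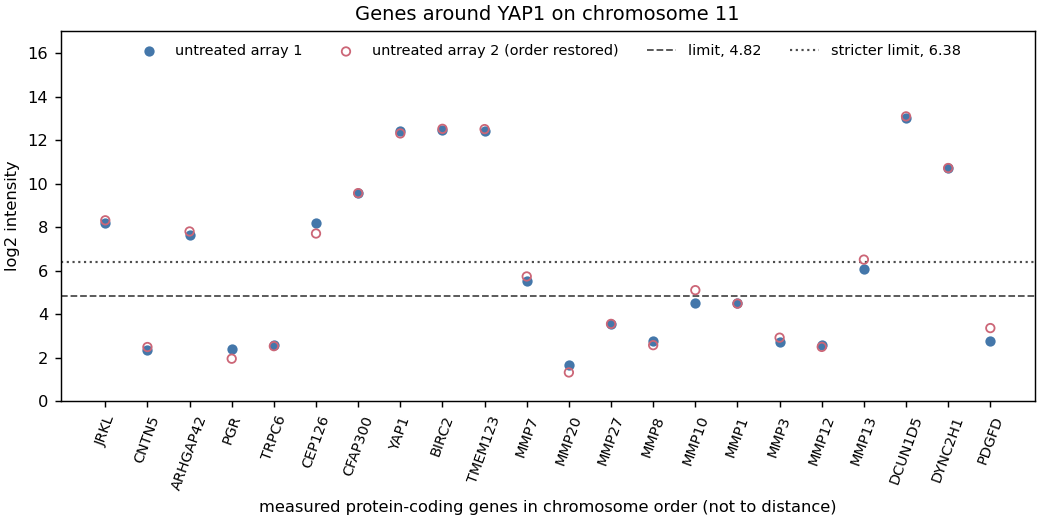
Log2 intensity on both untreated arrays of YAP1 and the measured protein-coding genes around it, in chromosome order and not to distance. YAP1, BIRC2, TMEM123 and DCUN1D5 lie above 12, whereas the metalloproteinase genes between them lie between 1.48 and 6.29 on average.

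Genes of the 11q13 segment, which is often amplified in squamous carcinoma, were fixed as a list of 18. Of these 14 passed the limit and 12 the stricter one (beside 58.9% and 41.5% of all genes). MRPL21 (10.51), CPT1A (9.94), CTTN (9.68), FADD (9.56) and PPP6R3 (9.42) were brightest, and CCND1, the cyclin of the segment, read 9.14 and 9.24. Its neighbours FGF3 (3.63), FGF4 (3.50) and FGF19 (3.04) were not above background, and ANO1 read 4.66.

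All genes of division lay above both limits: 29 of 29 for mitosis (median 9.75) and 33 of 33 for DNA replication (median 9.76). Of all genes 58.9% and 41.5% passed these limits. Mitosis was led by the securin PTTG1 (12.08), CDK1 (11.35), CDC20 (11.23), CCNB1 (11.20) and AURKA (10.94), and MKI67, the usual proliferation marker, read 9.05 and 8.91. Replication was led by RRM2 (11.94), TYMS (11.71), PCNA (11.24), RPA1 (11.11) and RPA3 (11.03). In the G1 list 25 of 26 genes passed the limit and 20 the stricter one (beside 58.9% and 41.5% of all genes). CDK4 (11.05), CCNE2 (9.39), E2F7 (9.34), CCND1 (9.19) and CCND3 (9.03) were brightest. The CDK4 inhibitors CDKN2A (5.11 and 5.01) and CDKN2B (4.92 and 4.75) lay at the edge of background, with 1 of 3 CDKN2A probe sets above the limit, while CDKN1B (9.03), CDKN1A (7.92) and RB1 (8.08) were measured clearly. CCND2 was not above the limit (3.91).

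Death regulators were above the limit in 27 of 30 cases and above the stricter one in 23 (beside 58.9% and 41.5% of all genes). Cytochrome c (CYCS, 12.99), BIRC2, the pore former GSDME (10.53), MCL1 (10.18) and BIRC5 (10.03) were brightest. Of the other anti-apoptotic BCL2 family members, BCL2L2 read 8.33, BCL2L1 7.88, BCL2 5.91 and BCL2A1 1.73. The effectors BAX (7.86) and BAK1 (7.19) and the initiator CASP8 (7.67) were measured, and RIPK3, the kinase of necroptosis, was not (4.05), although its substrate MLKL was (8.03).

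Enzymes of glucose use included several of the brightest genes, and several steps had bright general isoforms beside dim tissue-specific ones. Of 47 genes 35 passed the limit and 23 the stricter one (beside 58.9% and 41.5% of all genes). GAPDH (13.44 and 13.36), LDHB (13.19 and 13.15), LDHA (12.88 and 12.88), ENO1 (12.18) and ALDOA (12.14) led. Several muscle, brain and testis forms were low: ENO2 5.94, ENO3 5.41, ALDOC 6.22, PGAM2 4.83, PGK2 5.26, LDHC 5.68 and GAPDHS 3.88. All of these but GAPDHS lay between the limits. Both hexokinases HK2 (9.59) and HK1 (9.25) were measured and HK3 was not (4.37). The muscle form of phosphofructokinase was not low: PFKM (10.28) lay beside PFKP (10.40), above the liver form PFKL (6.82). The glucose transporter SLC2A1 read 8.32 and 8.16, and SLC2A3 (4.22), SLC2A4 (3.84) and SLC2A2 (2.29) were not above the limit.

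**Figure D5:**
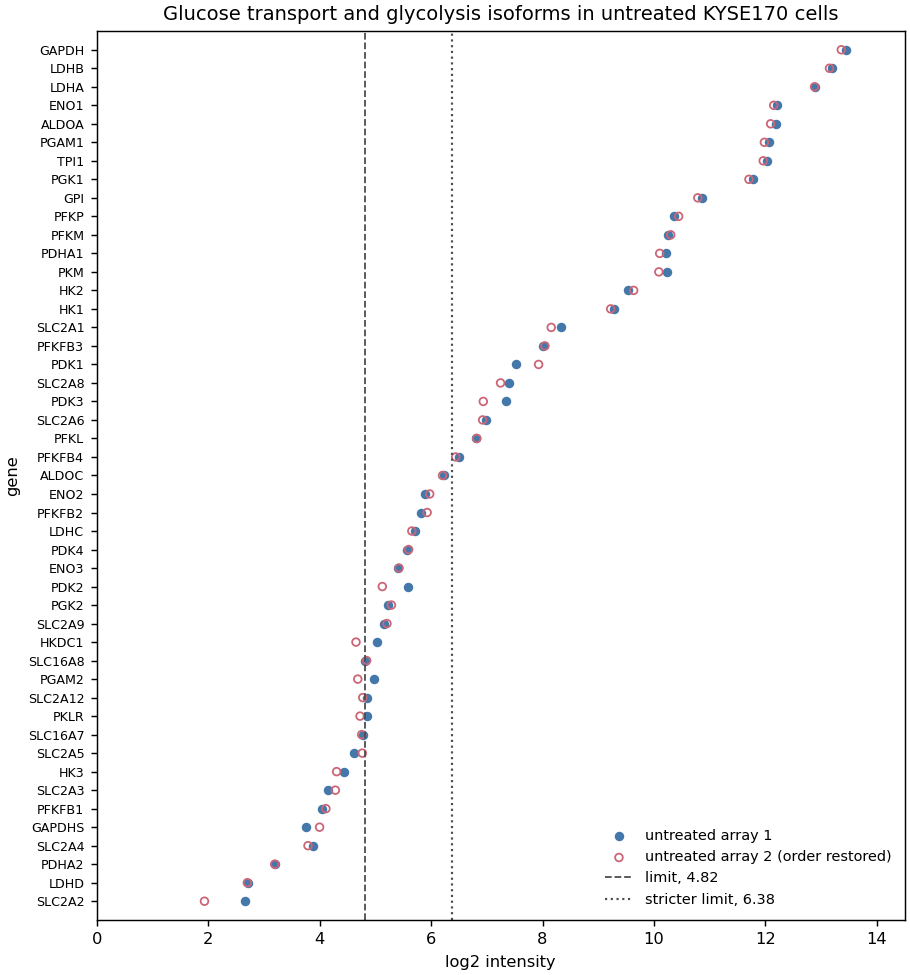
Log2 intensity of 47 genes of glucose transport and glycolysis on untreated array 1 (filled) and array 2 (open, order restored), in order of their mean. The ubiquitous forms GAPDH, LDHB, LDHA, ENO1 and ALDOA lie above 12 on both arrays. Of the tissue-specific forms, GAPDHS and SLC2A4 lie under the limit of 4.82, while ENO2, ENO3, ALDOC, PGK2 and LDHC lie between the limits. The muscle form PFKM lies above both limits.

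Several pairs of the respiratory chain also had a bright general form beside a dim tissue-specific one. Of 21 genes 14 passed the limit and 13 the stricter one (beside 58.9% and 41.5% of all genes). CYCS, SLC25A5 (12.52), COX6A1 (12.34), COX7A2 (12.13) and ATP5F1B (12.11) led. COX4I1 read 11.96 against 5.06 for COX4I2, COX6A1 stood against 3.83 for the muscle form COX6A2, and COX7A2 against 4.43 for COX7A1. The COX6A1 contrast rests on its brightest probe set. The middle one also read 3.83, under the limit computed in that way. The ADP/ATP carriers ran from SLC25A5 over the heart and muscle form SLC25A4 (8.73), which was not dim, to the testis form SLC25A31 (1.30).

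Genes of oxygen sensing were set as a list because EDHB inhibits 2-oxoglutarate-dependent prolyl hydroxylases, so the untreated levels give the starting point. Of 25 genes 20 passed the limit and 18 the stricter one (beside 58.9% and 41.5% of all genes). HIF1A, the hypoxia-inducible subunit, read 11.58 and 11.61, and EPAS1 (HIF-2 alpha) read 10.57 and 10.46 with 1 of 3 probe sets above the limit. HIF3A (4.74) was not above. Among the HIF prolyl hydroxylases EGLN1 read 8.37 and 8.54, EGLN3 lay between the limits on array 1, its only restored value, and EGLN2 4.11 and 3.66 with its only named probe set. The asparagine hydroxylase HIF1AN read 8.02 and the ubiquitin ligase subunit VHL 6.86. The collagen hydroxylases P4HB (10.43), PLOD2 (9.69), P4HA2 (9.26), PLOD3 (8.71) and P4HA1 (8.62) were all measured, and P4HA3 was not (4.65).

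Detoxification genes were bright, with 39 of 46 above the limit and 30 above the stricter one (beside 58.9% and 41.5% of all genes). Their median was 8.79. Thioredoxin (TXN) read 12.43 and 12.40, GSTP1 11.90 and 11.91, AKR1C1 11.54 and 11.72, and the transketolase TKT 11.54 and 11.35. TXNRD1 (11.43), AKR1C2 (11.31), NQO1 (11.21) and the glutamate-cysteine ligase subunits GCLM (10.03) and GCLC (9.93), all known targets of NRF2, were bright too. NFE2L2, which encodes NRF2, read 10.07 and its inhibitor KEAP1 9.47. HMOX1, another NRF2 target, read only 5.12. ALDH1A1 (1.25), ABCB1 (1.77), GSTA1 (3.33) and ADH7 (2.43) were not above background, whereas ALDH1A3 read 10.70. AKR1C1 and AKR1C2 are close paralogues read by probe sets that can bind both, so their signals may be shared.

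Cytokine ligands passed the limit in 15 of 31 cases (48.4%) and the stricter one in 6 (beside 58.9% and 41.5% of all genes). The 6 were the interleukin-1 genes IL1A (8.22) and IL1B (7.93), CXCL16 (7.99), CXCL8, IL18 (7.56) and CXCL1 (6.89). The other IL1A probe set read 4.06 and did not pass. CXCL8, a neutrophil attractant, differed more than 2-fold between the arrays, at 7.20 and 8.33. Interferon-induced CXCL9 (3.22), CXCL10 (3.80) and CXCL11 (2.08) were not above background. Cytokine receptors passed in 31 of 47 cases (66%), 24 past the stricter limit (beside 58.9% and 41.5% of all genes). They were led by TNFRSF21 (10.56), TNFRSF12A (10.08), IFNGR1 (9.88), IFNGR2 (9.24) and OSMR (8.92). The chemokine receptors CXCR4 (3.88), CXCR2 (1.78) and CCR7 (1.87) did not pass.

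Class I antigen presentation was measured and class II was not. In that list 21 of 34 genes (61.8%) passed the limit and 20 the stricter one (beside 58.9% and 41.5% of all genes). B2M (12.18), the don't-eat-me signal CD47 (11.27), HLA-C (10.25), HLA-B (10.19) and the stress ligand MICB (9.79) were brightest. TAP2 (9.34), TAP1 (7.66), PSMB8 (8.22) and PSMB9 (7.58) read lower. CIITA, the switch for class II genes, was not above the limit (4.40), nor were HLA-DRA (4.05), CD74 (4.67) and HLA-DPA1 (3.04). CD274 (PD-L1) lay between the limits at 5.21 and 5.53. HLA class I genes are closely related in sequence, so their probe sets may share signal.

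Surface targets of antibody drugs passed the limit in 26 of 34 cases and the stricter one in 21 (beside 58.9% and 41.5% of all genes). After EPCAM, AXL and MET the brightest were tissue factor F3 (10.59 and 10.91) and the zinc transporter SLC39A6 (10.32 and 10.38), then EGFR, CD44 (10.12), STEAP1 (9.72) and CDH3 (9.39). NECTIN4 (5.15) lay between the limits, and CEACAM5 (4.56), FOLH1 (3.05) and CLDN18 (3.62) were not above background.

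Cancer-testis antigens are normally limited to the germ line. Here 7 of 32 named members (21.9%) lay above both limits, beside 58.9% and 41.5% of all genes. MAGEA6 read 11.68 and 11.81, MAGEA1 11.05 and 11.03, MAGEA12 10.88 and 11.03, and MAGEA4 10.29 and 10.44. IGF2BP3 (11.05), an oncofetal RNA-binding protein, MAGEB2 (9.42) and MAGEA10 (8.68) were the others. The remaining 25 members had levels between 1.42 (CTCFL) and 4.82 (PAGE5), among them MAGEC2 (4.03), PRAME (3.64), MAGEC1 (2.39), MAGEA11 (2.37) and MAGEA8 (2.16). MAGEA genes are near-identical copies, and the probe sets of MAGEA1, MAGEA6 and MAGEA12 are of a type that can bind several of them, so the split among these 3 is uncertain. Without probe sets that can bind several transcripts, 4 of 24 members lay above the limit, beside 51.6% of the 17098 genes left.

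The sequences just upstream of the start of MAGE genes on both sides of the limit are shown, because the family was divided at the limit while genes on both sides hold the same motif. Each gives the 100 bases before the start, 5′ to 3′ in the direction of transcription, from RefSeq (GRCh38.p14), with GGATGT and its reverse complement in capitals, a run with the GGAT core that ETS factors can bind. The first 4 belong to genes above the limit and the other 4 to genes not above it.
MAGEA6, chrX:152769690-152769789, minus strand: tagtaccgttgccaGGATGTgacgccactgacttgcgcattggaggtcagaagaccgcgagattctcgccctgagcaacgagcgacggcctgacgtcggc
MAGEA12, chrX:152733657-152733756, plus strand: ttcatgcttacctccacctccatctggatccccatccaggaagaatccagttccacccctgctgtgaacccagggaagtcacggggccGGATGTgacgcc
MAGEA4, chrX:151912374-151912473, plus strand: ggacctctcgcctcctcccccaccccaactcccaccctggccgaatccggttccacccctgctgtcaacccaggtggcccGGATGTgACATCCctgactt
MAGEB2, chrX:30215463-30215562, plus strand: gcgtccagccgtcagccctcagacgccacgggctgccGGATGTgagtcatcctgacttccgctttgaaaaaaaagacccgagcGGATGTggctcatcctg
MAGEC2, chrX:142205291-142205390, minus strand: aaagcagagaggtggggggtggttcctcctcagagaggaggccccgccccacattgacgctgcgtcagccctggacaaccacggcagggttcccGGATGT
MAGEC1, chrX:141903794-141903893, plus strand: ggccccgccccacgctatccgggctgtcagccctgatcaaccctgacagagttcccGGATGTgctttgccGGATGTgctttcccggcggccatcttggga
MAGEA11, chrX:149711960-149712059, plus strand: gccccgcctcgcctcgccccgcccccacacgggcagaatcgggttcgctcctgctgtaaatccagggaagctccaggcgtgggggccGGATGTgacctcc
MAGEA8, chrX:149881083-149881182, plus strand: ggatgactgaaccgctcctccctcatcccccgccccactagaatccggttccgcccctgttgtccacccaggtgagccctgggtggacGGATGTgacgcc
The 8 were chosen after their values and letters were seen, so that each holds the motif. Of 13 measured MAGE genes, 11 had a promoter in the RefSeq table, without MAGEA1 and MAGEA10. The motif lay in the 100 bases of all 4 genes above the limit and of 4 of 7 not above it, with none in MAGEB1, MAGEB3 and MAGEB4. In the same 100-base window it occurred in 3.36% of 27305 promoters. These genes share ancestry, and a match is a description of letters. DNA methylation was not measured.

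Over all genes, promoter letters differed between classes of level, though TATAAA and GGATGT did not change steadily with it. Windows of 250 bases before and 50 after the start held a median of 9 CG pairs for 5902 genes not above the limit and 24 to 27 for the classes above it. TATAAA, on either strand, occurred in 14% of windows of genes not above the limit, in 4.5% for levels of 7 to 9 and in 8.15% for 503 genes over 11. CCGGAAGT, an ETS-type run, occurred in 1.8%, 10.7% and 12.5% of the same classes. GGATGT went from 10.2% to 7.69% and 8.75%. Among all 15384 genes with a level the shares were 8.76% for TATAAA, 6.25% for CCGGAAGT and 8.77% for GGATGT. Genes are not independent of each other, and these shares are given as descriptions.

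HOX genes record position along the body axis. They passed the limit in 18 of 28 named cases (64.3%) and the stricter one in 8 (beside 58.9% and 41.5% of all genes). HOXD10 read 9.90 and 9.81, HOXC6 9.05 and 9.15, HOXC10 8.99 and 9.02, HOXB7 7.62 and HOXD11 6.73. Members beside them in the same clusters were not above background, such as HOXD12 (2.23), HOXC12 (3.25), HOXB8 (2.42) and HOXB6 (2.91).

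Matrix proteases and inhibitors passed the limit in 26 of 38 cases and the stricter one in 16 (beside 58.9% and 41.5% of all genes). ADAM10, ADAM9 (10.40), the cathepsin CTSC (10.14), TIMP1 (9.33) and the serpin SERPINB5 (9.16) were brightest. The urokinase gene PLAU (6.80) and its receptor PLAUR (7.20) were measured. Of the metalloproteinases only MMP14 (6.61) and MMP28 (6.41) were past the stricter limit, and MMP1 (4.50), MMP2 (3.97) and MMP3 (2.81) were not above the first. SERPINB3 (2.35) and SERPINB4 (1.61), squamous cell antigens of the upper layers, were not above background.

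The brightest genes outside ribosomal proteins and EEF1 translation factors were TUBA1B (13.51), PPIA (13.46), GAPDH (13.40), the mitochondrial COX2 (13.40) and TUBA1C (13.35). PABPC1, ND4, HSPD1, ACTB and S100A2 came next, between 13.33 and 13.21, and then LDHB, TPT1, ANXA2, UBB, DCUN1D5, HSP90AA1, HINT1, EIF1, CYCS and FAU, down to 12.98. S100A2 was the only one of these 20 that belongs to the squamous lists, and 43 of the 100 brightest genes were ribosomal proteins. Some of these signals may be shared with related transcripts: without probe sets that can bind several transcripts, TUBA1B read 2.12, PPIA 4.07, PABPC1 2.99 and ANXA2 4.11, all under the limit. In that setting 14 of 163 named genes changed side. Among leading genes of the lists above, ENO1 (4.39), CTNNA1 (4.69), RBPJ (3.21) and IFNGR1 (2.95) also fell under the limit. AURKA (4.826) fell just under that setting's limit of 4.831.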

How the data were processed

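Expression was measured with Affymetrix arrays. Values in the deposited table are linear intensities, 1 for each probe set on an array. The submitters' processing notes name RMA, and its implementation is not given in the sources used here. This method equalises the arrays' distributions, so a global difference between arrays is not visible. Intensities, from 1.66 to 13243 on the untreated arrays, were turned into log2 with no pseudocount.

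The second columns were put back in order under an inferred layout (148 probe sets at least 2-fold higher, 45 lower, the other 54419 in ID order) that no label records. A forward-backward alignment of untreated levels (Student's t, scale 0.15, 3 degrees of freedom) kept rows at a posterior of at least 0.95. The treated arrays entered only through those lists. Aligning by the treated arrays instead gave the same value for 54379 of 54387 probe sets restored both ways. On data simulated with this layout and the alignment's own t distribution, 54479 rows were restored, 0 wrongly. Because both were assumed, the simulation cannot show whether they hold for the deposited columns.

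The platform annotation gave 41091 probe sets 1 gene, 1801 several and 11721 none. Symbols were checked against RefSeq (GRCh38.p14): 54 probe sets had no match and 0 symbols changed. A gene took its brightest probe set on array 1, and 61 genes have array 1 only.

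Members and lists were chosen with earlier results of these data known. The named genes are the markers, the 20 brightest genes outside ribosomal proteins and EEF1 factors, the 5 brightest of each list, members of other cell types above the limit, and dim relatives of bright genes. Other genes were named after their values were seen. No test was made. Python 3.11.15, numpy 2.4.6, pandas 2.3.3, numba 0.67.0 and matplotlib 3.10.9 were used.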

Additional observations from a re-analysis of the deposited data

How the results depend on the processing

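No paired analysis was possible because the description of untreated cells comes from no test. Each of 10 processing choices was changed alone, and of 400 recomputed counts 343 stayed within 1.5 times their value. The share of all genes above the limit, 58.9% at the main setting, moved as well. It was 57.4% without array 1, 60.1% without array 2 and 47.1% with the probe set of median level. Without probe sets that can bind several transcripts it was 51.6%. With limits at 5.15, 4.55 and 6.38 it was 54.8%, 62.7% and 41.5%. The list counts below are to be read beside these shares. Restoring the order by the treated arrays, a posterior of 0.5 and centring each array gave 11653, 11652 and 11652 genes above the limit and moved no list count by over 1.5 times. Leaving out 1 array gave 11312 to 11875 genes, and the endothelial count of 2 became 1 without array 1 and 3 without array 2, the leukocyte count of 0 became 0 and 1, and the muscle count of 6 became 3 and 6. With the probe set of median level 9316 genes passed, and columnar genes fell to 8, mesenchymal to 6, endothelial to 1, RTK ligands to 18, TGF-beta to 19, Hedgehog to 2, integrins to 8, G1 to 16, liver and pancreas to 1 and neuronal to 2, while leukocytes rose to 1. There 30 of 206 named genes changed side, among them SOX2 (4.70), EPAS1 (4.56), KRT7 (4.74), TGFBR2 (4.52), ITGB1 (2.60) and TXNRD1 (1.26). Without probe sets that can bind several transcripts (17098 genes remain, fewer per list) the counts were 8 suprabasal, 9 columnar, 5 mesenchymal, 1 fibroblast, 1 leukocyte, 2 melanocyte or neuroendocrine, 17 receptor kinases, 18 ligands, 13 Notch, 19 mitosis, 20 glycolysis, 4 cancer-testis, 17 protease and 3 neuronal. A limit at the 99th percentile of olfactory receptors (5.15) gave 10829 genes, with 0 endothelial, 2 melanocyte or neuroendocrine, 1 liver and pancreas and 3 muscle genes. A limit at the median probe set (4.55) gave 12398 genes, with 4 endothelial, 2 leukocyte, 7 Hedgehog and 4 liver and pancreas genes. At the stricter limit of 6.38 the counts were 6 suprabasal, 9 columnar, 6 mesenchymal, 1 fibroblast, 0 endothelial, 1 melanocyte or neuroendocrine, 15 receptor kinases, 18 ligands, 12 nuclear receptors, 19 TGF-beta, 17 WNT, 14 Notch, 1 Hedgehog, 9 integrins, 6 cytokine ligands, 23 glycolysis, 8 HOX, 16 proteases, 0 liver and pancreas, 3 neuronal and 0 muscle. RMA values carry no detection call, so a gene under the limit is not shown to be silent, and 2564 genes lay within 0.5 of it.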

Other observations

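A few genes best known from other tissues lay well above the olfactory receptor limit. The counts below stand beside 58.9% of all genes above the limit and 41.5% above the stricter one. In the list of photoreceptor and neuronal genes 5 of 18 passed the limit and 3 the stricter one: the neurofilament NEFL at 9.67 and 9.72 with all 3 of its probe sets above, the myelin gene MBP at 8.97 and 8.75 with 4 of 9, and the glutamate receptor GRIN1 at 6.58 and 6.43. SLC6A3 (5.83 and 5.94) and SLC17A7 (4.83 and 5.17) lay between the limits. NEFM, which forms filaments with NEFL, was not above (3.28). Of 17 liver and pancreas genes 2 passed, CYP3A4 (6.32) and TTR (5.11), and of 19 striated muscle genes 6 passed, the brightest being RYR1 (5.98), TTN (5.68) and MYOD1 (5.28), none past the stricter limit. These 3 lists set the stricter limit, so how many of their members pass it is fixed by its definition and is no result.

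After the order was restored, both untreated arrays read most genes alike. This is partly by construction, since array 2 rows were chosen by closeness to array 1, so the differences below understate the spread. Among 11600 genes above the limit with both values the median absolute difference was 0.10 and the 99th percentile 0.49, and 6 differed at least 2-fold. Higher on array 2 were PTGS2 (6.46 and 7.77), ZBED2 (4.36 and 5.63), CXCL8 (7.20 and 8.33) and DLGAP1-AS6 (5.35 and 6.42), and higher on array 1 were TFPI (6.81 and 5.72) and SCNN1A (8.93 and 7.86). FOXQ1 (8.41 and 7.46), FST (8.89 and 9.84) and SGK1 (7.84 and 8.64) came close to that size.

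Of 11721 probe sets with no gene listed in the annotation, 2651 (22.6%) lay above the limit and 125 above a log2 level of 10. They are unnamed here. Among 7719 genes above the limit with several probe sets, 4387 (56.8%) had at least 1 probe set that was not above it.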
